A study of Homo sapiens with 6 samples.

Results

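The transcripts of the proteasome were followed in ES-2 cells after transfection with an inhibitor of the microRNA miR-182. The members were taken from the array annotation as every probe whose gene symbol begins with PSM, a letter from A to G and a number, together with POMP and ADRM1, leaving out pseudogenes. This gave 75 of 48803 probes and 48 of 18852 annotated genes. Of these 48 genes, 45 encode a subunit, activator, inhibitor or assembly factor of the proteasome. The other 3, PSMC3IP, PSME3IP1 and PSMD6-AS2, share only the pattern of the name and are given apart. No probe carried the symbols PSMA7, PSMC5, PSMD7, PSMD13 or PSMG4 in the annotation used here.

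ES-2 is an established cell line of ovarian clear cell cancer, and all values describe this 1 line. One group was transfected with a hairpin inhibitor of hsa-mir-182 at a final concentration of 50 nM, and the other with a negative control hairpin inhibitor, built on a Caenorhabditis elegans microRNA and with no dose of its own in the labels. The cells were harvested 48 h after transfection, and each group held 3 samples that the labels call biological replicates, 1 Illumina bead array per sample. The comparison asks which transcripts differ after transfection with the miR-182 inhibitor. How far miR-182 itself was lowered was not examined here. The design text calls the agent a mimic, whereas the sample labels call it an inhibitor, which is the name used here.

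The 26S proteasome degrades proteins tagged with ubiquitin. Its 20S core is a barrel of alpha rings that gate the entrance and beta rings that hold the proteolytic sites, and its 19S cap has a base of ATPases that unfold the substrate and a lid that removes ubiquitin. In cells exposed to interferon gamma, and constitutively in white blood cells, the catalytic beta subunits PSMB5, PSMB6 and PSMB7 are replaced by PSMB8, PSMB9 and PSMB10, which gives the immunoproteasome and alters the peptides offered on MHC class I molecules. Assembly is stepwise and needs dedicated chaperones, and the genes of the 26S particle are activated together by the transcription factor NFE2L1 when proteolysis is blocked.

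The sequences bearing on the experiment are the microRNA that the inhibitor is directed at and the promoters of 4 proteasome transcripts. These were the 4 whose differences lay farthest from 0, chosen after their values were seen. All sequences are from RefSeq on GRCh38.p14, 5′ to 3′ on the strand of the transcript. The sample labels name hsa-mir-182 without an arm, and the 5p arm is shown. Capitals mark bases 2 to 8, the seed that pairs with target transcripts, in miR-182-5p (chr7:129770447-129770470, minus strand).
hsa-miR-182-5p: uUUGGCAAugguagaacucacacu

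Promoter windows ran from 250 bases before to 50 bases after the annotated start. They are shown for PSME1 (chr14:24135944-24136243, plus strand) and PSME2 (chr14:24146561-24146860, minus strand), the paired subunits of an interferon-inducible activator, for PSME3 (chr17:42833147-42833446, plus strand), their nuclear relative, and for PSMB2 (chr1:35641477-35641776, minus strand), a structural subunit of the core. Capitals mark matches, on either strand, to 4 motifs: the antioxidant response element core TGACNNNGC, to which NFE2L1 binds, the CCAAT box CCAAT, the interferon regulatory factor core GAAANNGAA and the gamma-activated site TTCNNNGAA.
PSME1: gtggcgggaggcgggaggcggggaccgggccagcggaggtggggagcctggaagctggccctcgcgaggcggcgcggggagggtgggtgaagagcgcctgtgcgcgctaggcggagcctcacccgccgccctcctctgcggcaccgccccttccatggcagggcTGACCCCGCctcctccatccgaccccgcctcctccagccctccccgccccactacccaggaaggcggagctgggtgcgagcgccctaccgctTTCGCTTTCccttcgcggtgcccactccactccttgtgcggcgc
PSME2: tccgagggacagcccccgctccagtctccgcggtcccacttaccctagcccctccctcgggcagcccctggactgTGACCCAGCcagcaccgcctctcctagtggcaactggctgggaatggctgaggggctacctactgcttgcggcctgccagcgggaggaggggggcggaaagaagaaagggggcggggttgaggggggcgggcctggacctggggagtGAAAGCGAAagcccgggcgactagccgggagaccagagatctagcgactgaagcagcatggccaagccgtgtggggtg
PSME3: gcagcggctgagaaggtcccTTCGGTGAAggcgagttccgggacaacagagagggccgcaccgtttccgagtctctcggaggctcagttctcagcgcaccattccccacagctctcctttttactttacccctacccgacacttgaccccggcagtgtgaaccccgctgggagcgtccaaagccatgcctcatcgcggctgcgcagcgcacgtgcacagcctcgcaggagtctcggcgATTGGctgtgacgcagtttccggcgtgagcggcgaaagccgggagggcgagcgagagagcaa
PSMB2: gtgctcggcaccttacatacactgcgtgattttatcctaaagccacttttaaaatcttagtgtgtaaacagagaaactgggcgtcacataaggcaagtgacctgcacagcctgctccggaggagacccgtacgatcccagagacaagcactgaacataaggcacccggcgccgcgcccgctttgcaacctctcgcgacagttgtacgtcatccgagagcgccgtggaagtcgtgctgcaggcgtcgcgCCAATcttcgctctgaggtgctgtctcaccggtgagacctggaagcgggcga

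PSME1 and PSME2 each held 1 antioxidant response element core and 1 interferon regulatory factor core, and PSME3 and PSMB2 held neither. In PSME2 the interferon regulatory factor core began 28 bases before the annotated start. A promoter was matched for 40 of the 45 proteasome genes with a probe, and the 4 motifs never overlapped in them. The antioxidant response element core occurred in 14 of the 40 (35.0%), against 13.3% of 35116 promoters of this length. The CCAAT box occurred in 45.0% of the proteasome promoters, against 34.6% of all. The interferon regulatory factor core occurred in 17.5% of the proteasome promoters, against 8.11% of all, and the gamma-activated site in 12.5%, against 7.66%. The proteasome set held 1 promoter per gene, whereas the 35116 promoters outnumber the 18852 genes annotated on the array. The sets therefore differ in make-up. Their shares were not tested against each other and do not show enrichment. The immunoproteasome group of 4 promoters includes PSMB11, a subunit of the thymus, beside PSMB8, PSMB9 and PSMB10. Of these 4, 1 (PSMB10) held the interferon regulatory factor core and 0 the gamma-activated site. A match to these letters is a description of the window and not evidence of a bound factor.

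Between 20365 and 22473 of the probes on an array (41.7% to 46.0%) were brighter than background, and a probe's signal rested on a median of 40 to 41 beads. As a check of the cell type, the keratins KRT7, KRT8 and KRT18 were detected on all arrays, while the epithelial markers CDH1 and KRT19 and the clear cell markers NAPSA and GPX3 were not well above background on any. The epithelial mucin MUC1 lay at −0.21 ± 0.069 log2 units, inhibitor minus control (adjusted p = 0.586, ± is the SE from limma throughout) with its groups apart. Its signal was dim, at 5.00 to 5.36. The fibroblast markers PDGFRA, COL1A1 and THY1 were detected on all 6 arrays and LUM on none, and the summed intensity of the 6 fibroblast markers ran from 1369 to 1476 with the inhibitor and from 1396 to 1441 in the control. Of 11 white blood cell markers with a probe, PTPRC, CD3D, CD2, ITGAM and SPI1 were not well above background on any array. MS4A1, CD79A, CD14 and FCER1G were detected on all 6 arrays, but dim, at log2 signals from 4.63 to 5.22. LYZ, also dim, was detected on 1 inhibitor array and 3 control arrays. The summed intensity of the 11, like the other on the linear scale after normalization, ran from 81.5 to 93.4 with the inhibitor and from 85.4 to 100.01 in the control, and all 5 that could be tested lay below 0 with a median of −0.056. The 4 tested clear cell markers also lay below 0, with a median of −0.15. The groups did not overlap for IGFBP1 (−0.29 ± 0.088, adjusted p = 0.567) and ANXA4 (−0.27 ± 0.092, adjusted p = 0.602), as for 6.23% of all genes on the lower side. IGFBP1 and ANXA4 were dim, at 4.65 to 5.11 and 4.70 to 5.25. The brighter SPP1 and ARG2 lay at −0.035 and −0.018, and their groups overlapped. The part of these marker differences in the values below was not tested.

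Of the 45 proteasome genes with a probe, 42 were detected on all 6 arrays and tested. The remaining 3 were not well above background on any array. They were PSMA8, an alpha subunit of the testis, PSMB11, a catalytic subunit of the thymus, and PSMF1, the proteasome inhibitor PI31. Each was read by a single probe, and a probe at background does not show that its transcript was absent. A second probe of POMP also lay at background on all 6 arrays, while its brightest probe was detected on all 6. Signals below are log2 values after background correction and quantile normalization, and differences are inhibitor minus control. In total RNA from a culture, a change in the number of cells and a change in RNA per cell cannot be told apart.

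No proteasome transcript passed the test between the groups, limma at a Benjamini-Hochberg adjusted p under 0.05 across the 12087 genes tested. Among all genes 0 passed as well (0%), and the lowest adjusted p of a proteasome gene was 0.624. The differences of the 42 ran from −0.18 for PSME2 to 0.14 for PSME3, with 18 above and 24 below 0 and a median of −0.015, against a median of 1.5e-05 over all genes tested. None of the 42 differed by more than 0.2 log2 units in either direction, against 7.07% of all genes. The 42 also varied less between arrays of a group than genes at large (median SD 0.063 against 0.095). The share among genes of like brightness or spread was not taken, so this count does not show a particular stability of the proteasome.

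The plot of differences by complex shows how narrow these intervals were. For 41 of the 42 transcripts the 95% interval lay within a 1.3-fold change in both directions, and for all 42 within 1.5-fold. The lowest interval end was −0.47 (1.38-fold), for PSME2, and the highest 0.29 (1.22-fold), for PSME3. The median between-array SD within a group was 0.063 log2 units for the 42, against 0.095 for all genes tested. The error expected from the spread over beads had a median of 0.052.

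**Figure D1:**
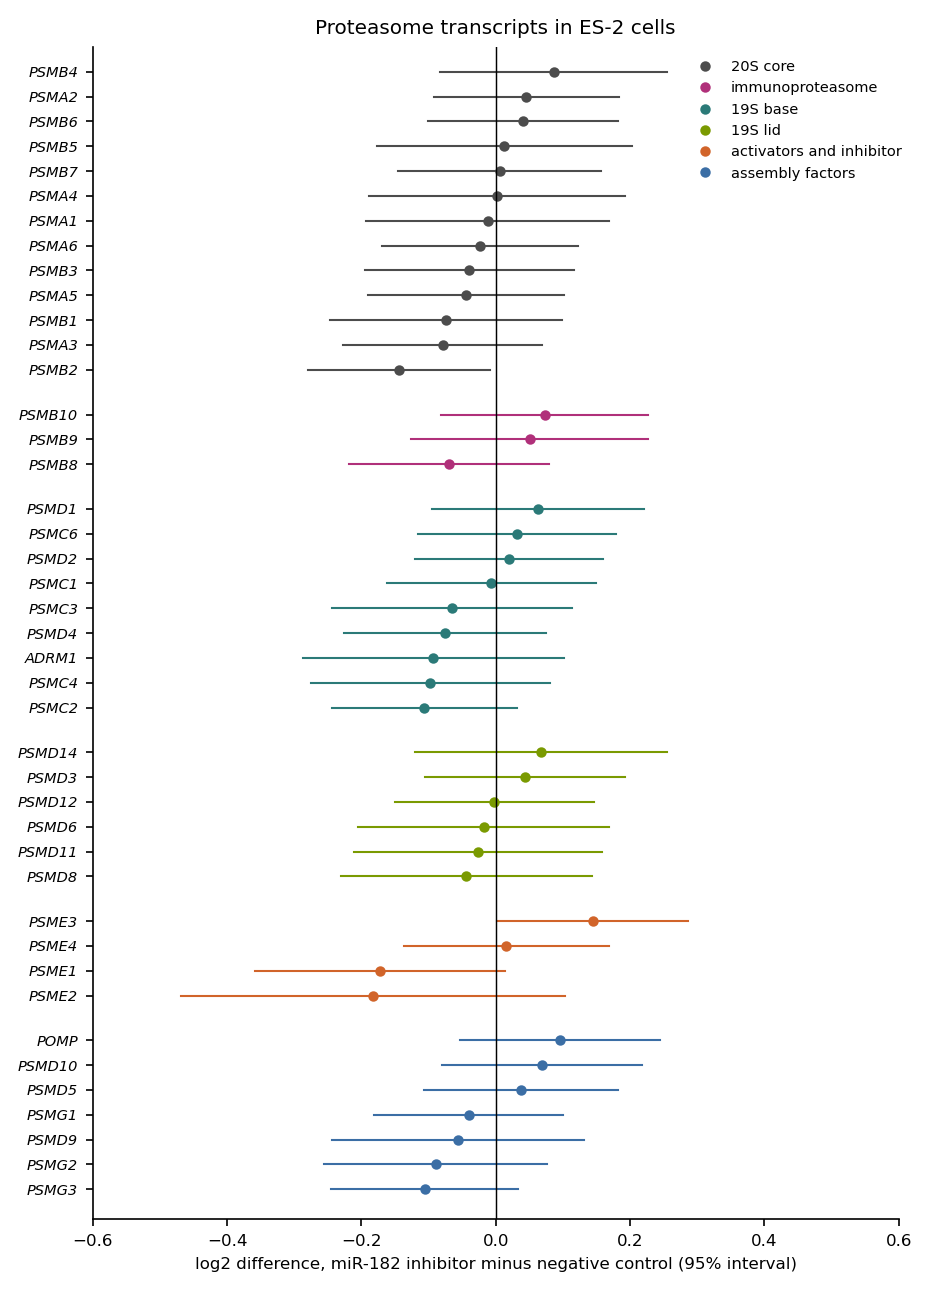
Log2 differences (miR-182 inhibitor minus negative control, horizontal axis) of the 42 tested proteasome transcripts, grouped by complex, with 95% intervals from limma over 3 arrays per group. All estimates lie between −0.18 and 0.14, and only the intervals of PSMB2 and PSME3 leave out 0.

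At an unadjusted p under 0.05 there were 2 of the 42, PSME3 on the higher and PSMB2 on the lower side. That is 4.76% of them, against 7.65% of all genes tested, of which 3.5% lay on the higher and 4.15% on the lower side. The groups did not overlap in 1 transcript on the higher side, PSME3, and in 4 on the lower side, PSMB2, PSMC2, PSME1 and PSMG3. These 5 make up 11.9% of the 42, against 13% of all genes (6.8% higher and 6.23% lower). Both counts are small, and the shares were not tested against those of the genes at large. With PSMD6-AS2 and the other non-subunits included, 3 of 45 members (6.67%) were under an unadjusted p of 0.05.

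The 20S core was represented by 13 detected transcripts, 6 above and 7 below 0, with a median difference of −0.012. PSMB2, a beta subunit without proteolytic activity, had 11.31, 11.26 and 11.29 with the inhibitor and 11.41, 11.43 and 11.45 in the control. Each inhibitor value lay below each control value, and both groups were tight. Its difference was −0.14 ± 0.060 (unadjusted p = 0.0403, adjusted p = 0.624). PSMB4, another beta subunit without a proteolytic site, had 12.001, 12.06 and 11.84 with the inhibitor and 11.89, 11.91 and 11.84 in the control. The groups overlapped, and the difference was 0.087 ± 0.075 (adjusted p = 0.814). The alpha subunits PSMA1 to PSMA6, which form the gated outer rings, lay between −0.079 (PSMA3) and 0.045 (PSMA2). The structural beta subunits PSMB1 and PSMB3 lay at −0.074 and −0.039.

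The catalytic sites of the constitutive core showed differences close to 0. PSMB5, with the chymotrypsin-like site that bortezomib blocks, had 11.30, 11.30 and 11.07 with the inhibitor and 11.16, 11.31 and 11.16 in the control. Inhibitor replicate 3 was the lowest of the 6, and the groups overlapped. The difference was 0.013 ± 0.084 (95% interval −0.18 to 0.20). PSMB6, with the caspase-like site, had 13.06, 13.14 and 13.05 with the inhibitor and 13.03, 13.07 and 13.03 in the control, a difference of 0.041 ± 0.063 (95% interval −0.10 to 0.18). PSMB7, with the trypsin-like site, had 12.64, 12.68 and 12.55 with the inhibitor and 12.65, 12.65 and 12.56 in the control, a difference of 0.006 ± 0.067 (95% interval −0.15 to 0.16). Both pairs of groups overlapped. PSMB5 and PSMB7 turned to −0.035 and −0.041 without normalization between arrays, a setting that moved the median of all genes to −0.014. They also turned negative when single arrays were left out, for example to −0.026 and −0.022 without inhibitor replicate 2.

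The interferon-inducible counterparts were all detected in these cells. PSMB8, which takes the place of PSMB5, had 9.10, 9.19 and 9.11 with the inhibitor and 9.17, 9.17 and 9.27 in the control. The groups overlapped, and the difference was −0.070 ± 0.066 (adjusted p = 0.838). PSMB9, which takes the place of PSMB6, was dim but detected on all 6 arrays, with 5.77, 5.78 and 5.92 with the inhibitor and 5.89, 5.67 and 5.76 in the control, a difference of 0.050 ± 0.078 (adjusted p = 0.908). Another PSMB9 probe was not well above background on any array. PSMB10, which takes the place of PSMB7, had 10.22, 10.21 and 10.17 with the inhibitor and 10.03, 10.17 and 10.19 in the control. Control replicate 1 was the lowest of the 6, the groups overlapped, and the difference was 0.073 ± 0.068 (adjusted p = 0.833). PSMB8 and PSMB10 lay on opposite sides of 0, and the 95% interval of each included 0.

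**Figure D2:**
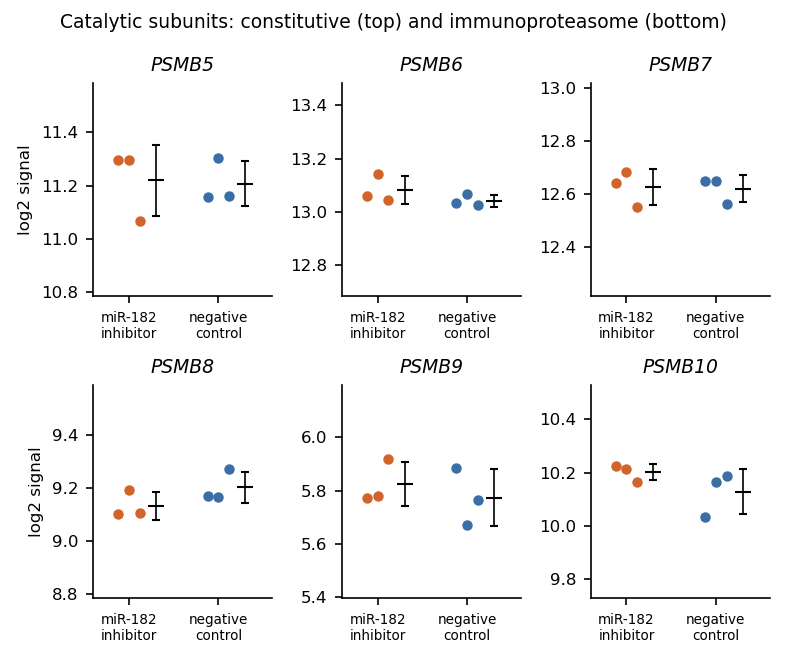
Log2 signal (vertical axis, each panel spanning the same range) of the 3 constitutive catalytic subunits and their 3 immunoproteasome counterparts on the miR-182 inhibitor arrays (left) and negative control arrays (right). Points are arrays, and bars give the mean and SD of 3. The groups overlap in all 6 panels.

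The balance between the immunoproteasome and the constitutive core was read from the change of the log2 ratio within each pair, since the levels of different probes cannot be set against each other. The ratio of PSMB8 to PSMB5 changed by −0.082 (95% interval −0.36 to 0.20), that of PSMB9 to PSMB6 by 0.0098 (−0.27 to 0.29) and that of PSMB10 to PSMB7 by 0.067 (−0.14 to 0.27). The exact permutation test over arrays, 2-sided, gave p = 0.5, 0.9 and 0.5, or 0.75, 0.9 and 0.75 adjusted over the 3 pairs. With 3 arrays against 3 the smallest p it allows is 0.1. The changes pointed in different directions, and the SD of the 3 ratios was 0.120, 0.119 and 0.043 within the inhibitor arrays and 0.126, 0.124 and 0.121 within the control arrays. With 1 array left out, the PSMB8 to PSMB5 change ran from −0.15 (without control replicate 2) to −0.025 (without control replicate 3), and the PSMB10 to PSMB7 change from 0.0030 (without control replicate 1) to 0.13 (without control replicate 3).

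The base of the 19S cap was represented by 9 transcripts, 3 above and 6 below 0, with a median of −0.065. With 1 array left out this median always lay nearer 0, from −0.043 to −0.013. PSMC2, an ATPase of the unfolding ring, had 11.56, 11.57 and 11.61 with the inhibitor and 11.67, 11.66 and 11.72 in the control. All inhibitor values lay below all control values, yet the difference of −0.11 ± 0.061 did not pass the test (adjusted p = 0.727). Another ATPase, PSMC4, had 9.98, 9.82 and 10.03 with the inhibitor and 10.09, 10.09 and 9.95 in the control, a difference of −0.097 ± 0.079. The groups overlapped, and 2 other detected PSMC4 probes gave −0.025 and 0.042. ADRM1, the ubiquitin receptor that also anchors the deubiquitinase UCHL5, had 10.74, 10.92 and 11.04 with the inhibitor and 11.00, 11.05 and 10.92 in the control. Inhibitor replicate 1 was the lowest and the groups overlapped, with a difference of −0.093 ± 0.086, or −0.013 without that array and 0.11 with a second detected probe. PSMD1, a large scaffold subunit of the base, had 10.69, 10.79 and 10.68 with the inhibitor and 10.73, 10.66 and 10.58 in the control. The groups overlapped with a difference of 0.063 ± 0.070. The other 5 base transcripts, PSMC1, PSMC3, PSMC6, PSMD2 and the ubiquitin receptor PSMD4, lay between −0.076 (PSMD4) and 0.032 (PSMC6).

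The lid of the cap was represented by 6 transcripts with a median of −0.0099, 2 of them above and 4 below 0. PSMD14, the metalloprotease that cleaves ubiquitin chains from the substrate, had 10.90, 10.95 and 10.95 with the inhibitor and 10.94, 10.97 and 10.69 in the control. Control replicate 3 alone was low. The difference was 0.068 ± 0.083 and turned to −0.020 without that array. PSMD3, PSMD6, PSMD8, PSMD11 and PSMD12, scaffold subunits of the lid, lay between −0.044 (PSMD8) and 0.044 (PSMD3).

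The activators held the transcripts farthest from 0 in either direction. PSME1, the alpha subunit of the interferon-inducible activator PA28, had 10.70, 10.91 and 10.99 with the inhibitor and 10.99, 11.07 and 11.06 in the control. The groups lay apart narrowly, with inhibitor replicate 1 well below the rest. The difference was −0.17 ± 0.083 (unadjusted p = 0.0665, adjusted p = 0.681), and −0.093 without that array. PSME2, its beta subunit, had 9.53, 9.68 and 9.72 with the inhibitor and 9.51, 9.97 and 10.00 in the control. Control replicate 1 was the lowest of the 6, so the groups overlapped, and the difference was −0.18 ± 0.13 (adjusted p = 0.756). It was −0.34 without control replicate 1 and −0.096 without control replicate 3. PSME3, the gamma subunit that forms a separate nuclear activator, had 10.26, 10.22 and 10.31 with the inhibitor and 10.16, 10.12 and 10.09 in the control. Each inhibitor value lay above each control value, and the difference was 0.14 ± 0.063 (unadjusted p = 0.0467, adjusted p = 0.639). A second PSME3 probe gave 0.0034. PSME4, the activator PA200, lay at 0.016 ± 0.068.

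The assembly factors comprised 7 transcripts, 3 above and 4 below 0, with a median of −0.040, or 0.019 when detected probes of a gene were averaged. POMP, which guides the maturation of the beta rings, had 12.66, 12.71 and 12.63 with the inhibitor and 12.63, 12.58 and 12.50 in the control. The groups overlapped narrowly, and the difference was 0.096 ± 0.066 (adjusted p = 0.751). PSMG3, a chaperone of the alpha ring, had 8.39, 8.40 and 8.44 with the inhibitor and 8.48, 8.51 and 8.56 in the control. Its groups lay apart with a difference of −0.11 ± 0.062 (adjusted p = 0.728). Another alpha-ring chaperone, PSMG2, had 11.48, 11.45 and 11.60 with the inhibitor and 11.68, 11.61 and 11.51 in the control. Its groups overlapped at −0.090 ± 0.074. PSMD10, the base chaperone gankyrin, had 11.80, 11.75 and 11.78 with the inhibitor and 11.76, 11.74 and 11.62 in the control. The difference was 0.068 ± 0.066, and 2 further detected probes gave −0.012 and −0.00055. PSMD5, PSMD9 and PSMG1, which also serve assembly, lay at 0.038, −0.056 and −0.040.

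**Figure D3:**
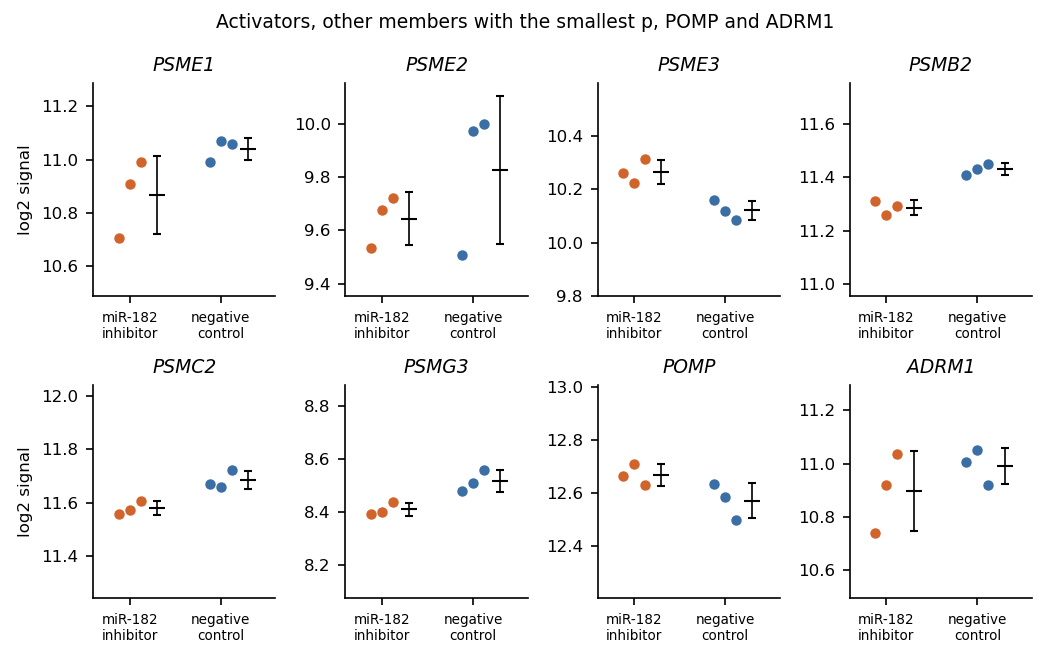
Log2 signal (vertical axis, each panel spanning the same range) of 8 proteasome transcripts on the miR-182 inhibitor arrays (left) and negative control arrays (right). Points are arrays, and bars give the mean and SD of 3. The groups lie apart for PSME1, PSME3, PSMB2, PSMC2 and PSMG3 and overlap for PSME2, POMP and ADRM1.

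The complexes were also followed array by array, as the mean deviation of their transcripts from each transcript's own mean over the 6 arrays. The 20S core lay at 0.0031, 0.0031 and −0.032 with the inhibitor and at −0.018, 0.035 and 0.0085 in the control. The immunoproteasome subunits lay at −0.011, 0.018 and 0.020 with the inhibitor and at −0.015, −0.042 and 0.030 in the control. The groups overlapped in both. The 19S base lay at −0.023, −0.032 and 0.00 with the inhibitor and at 0.028, 0.024 and 0.0023 in the control, which was the single complex whose groups did not overlap. Their gap of 0.0023 log2 units came with a difference between means of −0.037, and the median of the base moved to 0.0095 when a gene's detected probes were averaged. For the lid, inhibitor replicate 2 was low at −0.041, and for the activators inhibitor replicate 1 was lowest at −0.12.

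**Figure D4:**
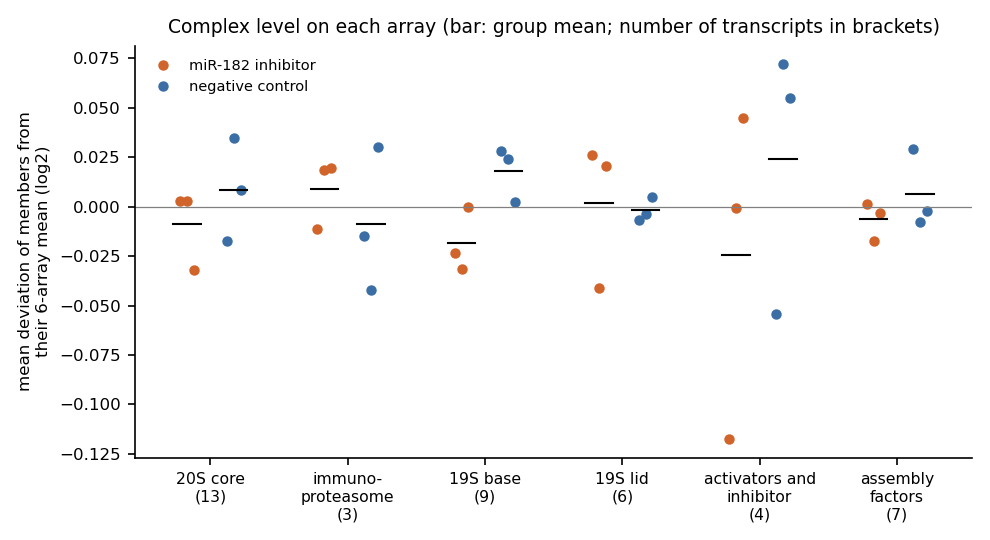
Level of each proteasome complex on each array (vertical axis, mean log2 deviation of its transcripts from their own 6-array means; number of transcripts in brackets), for the miR-182 inhibitor (left) and the negative control (right) of each pair. Points are arrays and bars are group means. PSMF1 was not detected, so the activators stand alone in their group. All values lie between −0.12 and 0.072.

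The members were also compared for how they varied from array to array within the groups. After the group means were taken out, the mean correlation over all pairs of the 42 transcripts was −0.016 across the 6 arrays, against 0.0062 over all pairs of the 12087 genes tested. It was 0.033 within the 20S core, −0.19 within the immunoproteasome, −0.073 within the base, −0.11 within the lid, −0.079 among the assembly factors and 0.20 among the 4 activators. These values describe 6 arrays that share their normalization, and no test was made of them.

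Where a gene had several detected probes, they often differed in direction. Of the 48 genes, 16 had a second detected probe, and in 6 of them all probes lay on the same side of 0, while in 10 they did not. PSME1 had its second probe on the same side, at −0.087, as did PSMD4 (−0.039) and PSMC6 (0.11). The second probes of PSME1 and PSMC6 were dim, at 4.91 to 5.43 and 5.38 to 5.69, and the groups overlapped in both. PSMA3 gave −0.079 with its brightest probe and 0.14 with the other, and PSMC1 gave −0.0063 and 0.13. The 4 detected probes of PSMB8 gave −0.070 for the brightest and between −0.14 and 0.026 for the others. ADRM1, PSMA3, PSMC1 and PSMG1 each had a second probe between 0.109 (PSMG1) and 0.143 (PSMA3) against a brightest probe below 0. PSMB2, PSMC2, PSMG3, PSME2 and the constitutive catalytic subunits rest on 1 probe each.

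**Figure D5:**
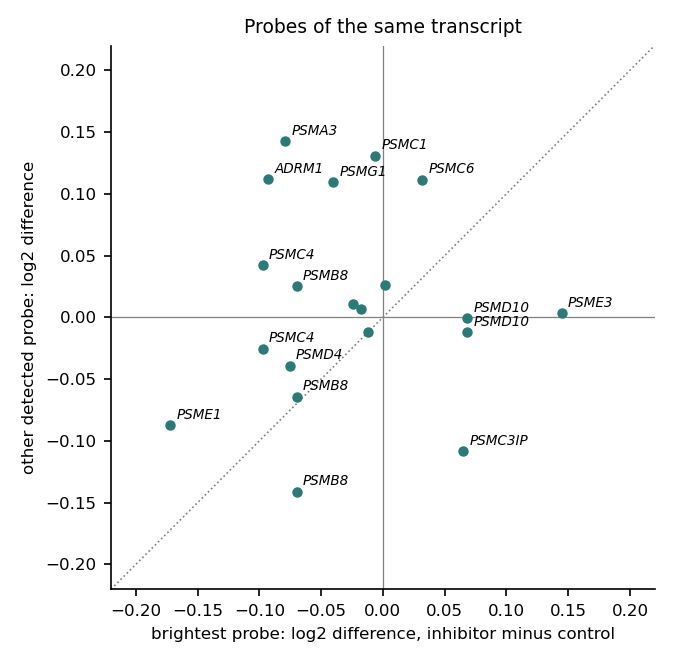
Log2 difference (miR-182 inhibitor minus negative control) from the brightest probe of a gene (horizontal axis) and from each other detected probe of the same gene (vertical axis). Points on the dotted line would agree exactly. Of 16 genes, 10 have a probe on the other side of 0.

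The 3 genes that match the name pattern without being part of the proteasome also did not pass the test. PSMC3IP, a recombination protein that binds PSMC3, had 8.49, 8.29 and 8.37 with the inhibitor and 8.42, 8.25 and 8.28 in the control. Its difference was 0.065 ± 0.079, and a second probe gave −0.11. PSMD6-AS2, a long noncoding RNA antisense to PSMD6, had 4.57, 4.54 and 4.58 with the inhibitor and 4.87, 5.14 and 4.56 in the control. It was detected on 1 of the 3 inhibitor arrays and 2 of the 3 control arrays. The groups overlapped at a difference of −0.29 ± 0.13 (unadjusted p = 0.0448, adjusted p = 0.639). This dim probe gave −0.15 in the deposited value table, −0.12 without background correction and −0.45 without control replicate 3. PSME3IP1, which binds PSME3, lay at −0.052 ± 0.067.

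Genes that act with the proteasome were followed on 4 lists, and 0 of the 38 tested passed after adjustment with limma. An unadjusted p under 0.05 was reached by 3 of the 38 (7.89%), against 7.65% of all genes. Of 9 tested genes around NFE2L1, 4 lay above and 5 below 0, with a median of −0.015. NFE2L1 itself lay at −0.061 ± 0.090 and is named after its value was seen. Within that list DDI2, the protease that releases NFE2L1 from the endoplasmic reticulum, had 5.11, 5.01 and 5.07 with the inhibitor and 4.93, 4.79 and 4.94 in the control. Its groups lay apart at 0.18 ± 0.070 (unadjusted p = 0.0312, adjusted p = 0.616), as on the higher side for 2 of the 9 genes and 6.8% of all genes. VCP, the ATPase that extracts ubiquitinated proteins, lay at −0.14 ± 0.083.

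Of 15 tested proteins that bind the proteasome or ferry substrates to it, 12 lay above and 3 below 0, with a median of 0.054. Among all genes tested 6044 lay above and 6043 below 0. On this list 0 were at an unadjusted p under 0.05 (limma), against 7.65% of all genes. TXNL1, a thioredoxin on the cap, lay at 0.25 ± 0.13, with control replicate 3 low at 6.52 against 7.02 and 6.96 on the other control arrays. UBQLN1, a shuttle receptor, lay at 0.096 ± 0.062 with its groups apart. The groups lay apart on the higher side for 3 of the 15 (20%), against 6.8% of all genes. These shares were not tested against each other. Of 3 tested genes for ubiquitin and its activating enzymes, UBA6 lay at 0.11 ± 0.084 and UBB at −0.022 ± 0.068.

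Class I antigen processing shares the immunoproteasome and PA28. Of 11 tested genes on that list, 4 lay above and 7 below 0, with a median of −0.059, and 2 were under an unadjusted p of 0.05, both on the lower side, where 4.15% of all genes lay. HLA-E, a nonclassical class I molecule, had 8.42, 8.78 and 8.78 with the inhibitor and 8.80, 8.96 and 9.01 in the control. Inhibitor replicate 1 was the lowest, as it was for PSME1, and the groups lay apart at −0.26 ± 0.11 (adjusted p = 0.624). B2M, the light chain of class I, lay at −0.17 ± 0.073 with its groups apart (adjusted p = 0.635). The groups lay apart on the lower side for 2 of the 11 genes, against 6.23% of all genes. TAP1, the peptide transporter encoded beside PSMB9, lay at 0.013 ± 0.067 and is named after its value was seen.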

How the data were processed

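Total RNA from ES-2 cells was measured on 6 Illumina bead arrays, 3 per group. Each array file, per the file headers, lists by probe the average bead intensity (linear), the bead SD, the bead count and a detection value; the authors deposited the last as a fraction, used here as 1 minus the detection p. BeadStudio is named in the submitters' processing notes. The deposited value table also holds intensities, which keep each array's order of signals and share 1 distribution, and it served as an alternative. All 48803 probes were paired with the named probes of that table by their order within the 6 arrays, and genes were named through GEO's annotation of the platform.

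Background correction and quantile normalization used neqc (limma 3.58.1, R 4.3.3, offset 16). Probes with a detection p under 0.05 on at least 3 of the 6 arrays entered, and the brightest probe stood for each of 12087 genes. Groups were compared with lmFit and eBayes, 2-sided, adjusted by Benjamini-Hochberg over all genes at 0.05. The fit was tested on simulated data. The members, gene lists and alternatives were chosen with earlier results of these data known. Named with values were the 6 catalytic subunits, POMP, ADRM1, up to 8 members per direction with the smallest p, and 2 genes of each companion list. Array number limits the precision. No slide or scan date was given in the sources used here. Protein sequences were not used here.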

Additional observations from a re-analysis of the deposited data

How the results depend on the processing

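No member was called under any of the 15 alternatives, in which the lowest adjusted p of a member was 0.386 (limma, without control replicate 1). Over all genes, 5 were called without normalization between arrays and 7 after scaling each array to the median of all probes, and these 2 settings moved the median of all genes tested to −0.014 and −0.037. Under them the medians were −0.060 and −0.083 for the 20S core, −0.10 and −0.13 for the 19S base and −0.066 and −0.090 for the assembly factors, and median scaling gave 0.013 for the immunoproteasome and −0.059 for the lid. Averaging detected probes gave 0.0095 for the base and 0.019 for the assembly factors. Dropping the detection filter adds PSMB11, the thymus subunit at background, to the immunoproteasome group, whose median was then −0.0096.

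The count of members at an unadjusted p under 0.05, 3 in the report, was 1 without normalization, after median scaling and with the replicate number as a block, and 4 with an intensity trend and robust prior. Leaving out 1 array gave 0 (without inhibitor replicate 1 or control replicate 2) or 1 (each other array). Same-numbered arrays correlated at 0.020, 0.0032 and −0.0060 in their deviations from the group means. These correlations show no pairing by number but cannot exclude that such arrays were handled together, and the labels do not say.

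PSMB5 turned to −0.035 and −0.058, and PSMB7 to −0.041 and −0.065, without normalization and after median scaling. PSMB6 was −0.016 after median scaling, above that setting's median of all genes. PSMB7 was −0.00044 in the value table. Averaging probes gave 0.0095 for ADRM1 and −0.022 for PSMC3IP. The PSMB9 to PSMB6 ratio was −0.0092 in the value table and −0.012 without background correction. With 1 array left out, that ratio ran from −0.054 to 0.068, PSMB5 from −0.026 to 0.090, PSMB7 from −0.024 to 0.041, PSMB9 from −0.00019 to 0.11, PSMD14 from −0.020 to 0.12 and PSMC4, for which another probe is brightest without control replicate 1 or 2, from −0.14 to 0.061. The median of the base ran from −0.043 to −0.013, a range that leaves out its value of −0.065 on all arrays. The median ran from −0.015 to 0.041 for the lid, −0.00019 to 0.066 for the immunoproteasome and −0.047 to 0.014 for the assembly factors. Without a change of sign, PSMB4 ran from 0.041 to 0.15, PSMB8 from −0.099 to −0.035, PSMB10 from 0.024 to 0.10, PSMD1 from 0.024 to 0.097, PSMD10 from 0.025 to 0.095, PSMG2 from −0.13 to −0.048, POMP from 0.059 to 0.13, ADRM1 from −0.16 to −0.013 and PSMC3IP from 0.011 to 0.12. Of 22 named members, 13 kept their direction in all 15 alternatives, and PSMD6-AS2 in the 11 that tested it. The intensity trend with robust prior and the replicate block cannot change a difference, so agreement under them was fixed in advance. Averaging probes likewise leaves a gene with a single detected probe unchanged. Both changes of the detection filter also repeated the main differences of the named members they tested. The cause of the moves given above was not tested, and groups of 3 arrays were not checked for outliers.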
